A study of Homo sapiens with 8 samples.

Results

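The genes described here are the 4 ID genes (ID1, ID2, ID3 and ID4) together with SMAD6, SMAD7, BMP4 and BAMBI, 8 of the 13584 genes tested in the series. They were chosen by name, with the glucose response of these same arrays in view, so the measured differences with and without glucose selected them. Those differences are given below as a description with no test. Every probe set that the array annotation ties to one of the 8 genes alone was used, 16 in all, and 1 further probe set shared by ID2 and the related locus ID2B was left out. All 8 genes passed the filter on dim probe sets, which required a mean log2 signal of 4.80 or more.

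The arrays measured A549 cells, an established human lung adenocarcinoma line, after transfection with small interfering RNA (siRNA) against steroid receptor coactivator 1 (SRC-1, encoded by NCOA1) or with control siRNA. Each siRNA was combined with both media, which gave 4 groups (SRC-1 siRNA with and without glucose, control siRNA with and without glucose) of 2 arrays that the labels call biological replicates. All cells were transfected, then kept for 36 h in medium with 10% dialyzed serum before DMEM with or without glucose, again with dialyzed serum. The sources used here do not say how long the last medium was applied, and all groups come from 1 cell line. The series examines the effect of SRC-1 loss on expression in both media.

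Bone morphogenetic proteins (BMPs) are secreted ligands, and BMP4 is one of them. They bind type I and type II receptor kinases, which phosphorylate SMAD1, SMAD5 and SMAD9, and these enter the nucleus with SMAD4. The ID genes are classical direct targets of this signal. ID proteins contain a helix-loop-helix but no DNA-binding region, pair with E proteins such as those encoded by TCF3, TCF4 and TCF12, and keep them off DNA, which is known to hold back differentiation and favour division. SMAD6 and SMAD7 are inhibitory SMADs and BAMBI is a receptor decoy without a kinase, and all of them are feedback inhibitors that the pathway itself can induce. In the lung, BMP4 is known for its part in branching and in epithelial development.

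The bases before the transcript starts of the 8 genes were read from RefSeq (GRCh38.p14) and are printed for the ID genes and SMAD6. Each line gives 250 bases 5′ to 3′ on the strand of the gene, ending just before the annotated start, for ID1 (chr20:31605039-31605288, plus strand), ID2 (chr2:8681806-8682055, plus), ID3 (chr1:23559502-23559751, minus), ID4 (chr6:19837120-19837369, plus) and SMAD6 (chr15:66701986-66702235, plus). Capitals mark matches on either strand to the promoter element CCAAT, to the TATA box as TATAAA, to the GC-rich SMAD motif GGCGCC, to the palindromic SMAD binding element GTCTAGAC and to the shorter SMAD motif CAGAC.
ID1: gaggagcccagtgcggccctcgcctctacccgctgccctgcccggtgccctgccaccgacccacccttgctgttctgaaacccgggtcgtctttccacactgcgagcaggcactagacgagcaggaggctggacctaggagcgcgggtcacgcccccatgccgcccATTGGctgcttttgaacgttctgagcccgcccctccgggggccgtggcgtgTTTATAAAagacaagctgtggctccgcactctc
ID2: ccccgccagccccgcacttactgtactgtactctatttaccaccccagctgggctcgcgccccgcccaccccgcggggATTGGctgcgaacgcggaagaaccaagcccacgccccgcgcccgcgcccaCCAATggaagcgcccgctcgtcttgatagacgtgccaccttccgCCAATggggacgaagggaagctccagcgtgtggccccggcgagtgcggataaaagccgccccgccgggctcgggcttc
ID3: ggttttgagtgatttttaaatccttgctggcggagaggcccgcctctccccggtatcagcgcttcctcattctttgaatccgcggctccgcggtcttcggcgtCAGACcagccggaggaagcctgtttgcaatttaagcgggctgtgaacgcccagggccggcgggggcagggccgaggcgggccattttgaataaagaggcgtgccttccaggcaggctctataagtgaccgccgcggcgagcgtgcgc
ID4: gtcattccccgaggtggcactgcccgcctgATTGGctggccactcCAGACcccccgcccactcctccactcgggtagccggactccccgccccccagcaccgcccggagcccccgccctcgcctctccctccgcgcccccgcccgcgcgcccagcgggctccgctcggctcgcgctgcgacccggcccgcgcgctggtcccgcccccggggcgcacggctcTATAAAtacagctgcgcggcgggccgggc
SMAD6: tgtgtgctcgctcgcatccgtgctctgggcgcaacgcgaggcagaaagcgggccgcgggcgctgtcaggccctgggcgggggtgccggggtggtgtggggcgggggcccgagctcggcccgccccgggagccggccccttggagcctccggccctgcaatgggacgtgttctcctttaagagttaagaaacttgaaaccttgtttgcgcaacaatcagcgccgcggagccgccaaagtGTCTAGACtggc
Motifs were searched in windows of 250 bases before to 50 after each start, and 12 windows matched the 8 genes, with 3 each for SMAD7 and BMP4. Among the ID genes, CCAAT lay in the windows of ID1, ID2 and ID4 and not of ID3, and 34.6% of all 35116 windows hold it. ID2 had 3 matches, at 172, 122 and 78 bases before the start. TATAAA lay in the windows of ID1 and ID4, 31 and 29 bases before the start, and in a SMAD7 window, and is in 11.5% of all windows. In ID1 a reverse-strand match to the same motif overlaps it. GTCTAGAC was found in the SMAD6 window, 12 bases before the start, and in 0.202% of all windows. CAGAC was in 8 of the 12 windows of the 8 genes, among them those of ID3 and ID4, and in 45.3% of all. GGCGCC was in no ID window, in 3 copies in that of BAMBI, in 2 copies in a BMP4 window and in 19.2% of all. The E-box CACGTG (7.26% of all windows) was in a BMP4 window, and the cyclic AMP response element TGACGTCA (1.85%) was in no member's window. The ID4 window had 76.3% G and C, against a median of 58.7% over all windows. The windows of the 8 genes ranged from 48.3% (a SMAD7 window) to 80% (BAMBI). These matches describe the letters of the windows, and binding was not measured. Bases farther from the starts were not searched, so a motif absent here may lie outside the windows.

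The deposited log2 signals had array medians of 4.97 to 5.01, and the 2 arrays of a group correlated at 0.997 to 0.998 over the 13584 genes tested. NCOA1, the target of the siRNA, had signals of 5.47 and 5.18 in SRC-1 siRNA cells with glucose, against 8.60 and 8.42 in control siRNA cells with glucose (9.10-fold lower, adjusted p = 1.44e-05, limma with Benjamini-Hochberg adjustment). Without glucose they were 5.22 and 5.09 with SRC-1 siRNA, against 8.34 and 8.24 with control siRNA (8.78-fold lower, adjusted p = 1.65e-05). These are values of the brightest NCOA1 probe set, 209106_at, and its other probe sets dropped less in both media. With glucose, their group means with SRC-1 siRNA against control siRNA were 5.75 against 8.02 (210249_s_at), 5.29 against 7.48 (209107_x_at) and 3.85 against 6.49 (209105_at). All 10 epithelial and A549 marker genes lay above the filter. So did 2 of 4 measured leukocyte markers (CD3E and CD14), 2 of 5 endothelial markers (PECAM1 and VWF) and 4 of 6 fibroblast markers, of which COL1A1 (7.74 to 8.01) was the brightest, while PTPRC (2.77 to 3.42), CDH5, KDR and COL1A2 lay below it. The summed linear signal of the 10 epithelial and A549 markers was 107027 to 109054 on arrays with glucose and 97166 to 99120 on those without. The brightest genes weigh most in this sum. CLDN1 (mean 9.96 with glucose, 10.88 without), CDH1 and ALDH1A1 had lower means with glucose, and the others had higher ones. For the other cell types, the summed marker signal was 90.7 to 118 with glucose and 90.4 to 100 without for leukocytes, 145 to 151 with glucose and 141 to 158 without for endothelium, and 380 to 419 with glucose and 363 to 392 without for fibroblasts. The 3′ minus 5′ log2 signal of GAPDH, a measure of RNA integrity, was 0.139 to 0.172 with glucose and 0.123 to 0.141 without (exact permutation p = 0.0571, two-sided, smallest possible 0.0286), and that of ACTB was 0.513 to 0.643 with glucose and 0.414 to 0.535 without (p = 0.143 by the same exact test). The part of these shifts in the glucose differences below was not tested. In bulk RNA, fewer cells that express a gene and less of its RNA per cell cannot be told apart.

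Among the ID genes, ID4 stood farthest apart between media, at more than 5-fold, and ID1 next. ID4 (probe set 209291_at) had log2 signals of 8.80 and 8.67 in SRC-1 siRNA cells with glucose, against 6.30 and 6.37 without. In control siRNA cells it had 8.79 and 8.58 with glucose, against 6.24 and 6.41 without. The 4 arrays with glucose all lay more than 2 log2 units above the 4 without, and the siRNA groups interleaved within each medium. The glucose difference was 2.40 ± 0.097 on the log2 scale with SRC-1 siRNA (SE, n = 2 arrays per group, 5.28-fold) and 2.36 ± 0.097 with control siRNA (5.15-fold). Among all 13584 genes these differences ranked 2 and 1 from the highest.

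ID1 (208937_s_at), the family member most often used as a readout of BMP signalling, had 12.30 and 12.44 in SRC-1 siRNA cells with glucose and 11.27 and 11.07 without. In control siRNA cells the signals were 12.33 and 12.39 with glucose and 11.11 and 11.29 without. The media did not overlap with either siRNA, at 1.20 ± 0.095 (2.29-fold) with SRC-1 siRNA and 1.17 ± 0.095 (2.25-fold) with control siRNA. ID2 (201565_s_at), known to bind the retinoblastoma protein as well as E proteins, had 12.13 and 12.31 with glucose and 11.42 and 11.50 without after SRC-1 siRNA. After control siRNA it had 12.08 and 12.27 with glucose and 11.41 and 11.59 without. Its glucose differences were smaller than those of ID1, 0.77 ± 0.098 (1.70-fold) with SRC-1 siRNA and 0.67 ± 0.098 (1.59-fold) with control siRNA.

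ID3 (207826_s_at), a close relative of ID1 in sequence and targets, had 11.67 and 11.68 with glucose and 11.09 and 11.01 without in SRC-1 siRNA cells. In control siRNA cells it had 11.62 and 11.69 with glucose and 11.05 and 11.22 without. This was the smallest separation in the family, 0.62 ± 0.076 (1.54-fold) with SRC-1 siRNA and 0.52 ± 0.076 (1.43-fold) with control siRNA, and the groups still did not overlap. The order ID4, ID1, ID2, ID3 was thus the same with both siRNAs. The 95% intervals of ID2 and ID3 overlap (0.54 to 0.99 and 0.45 to 0.80 with SRC-1 siRNA), so their order was not resolved.

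**Figure D1:**
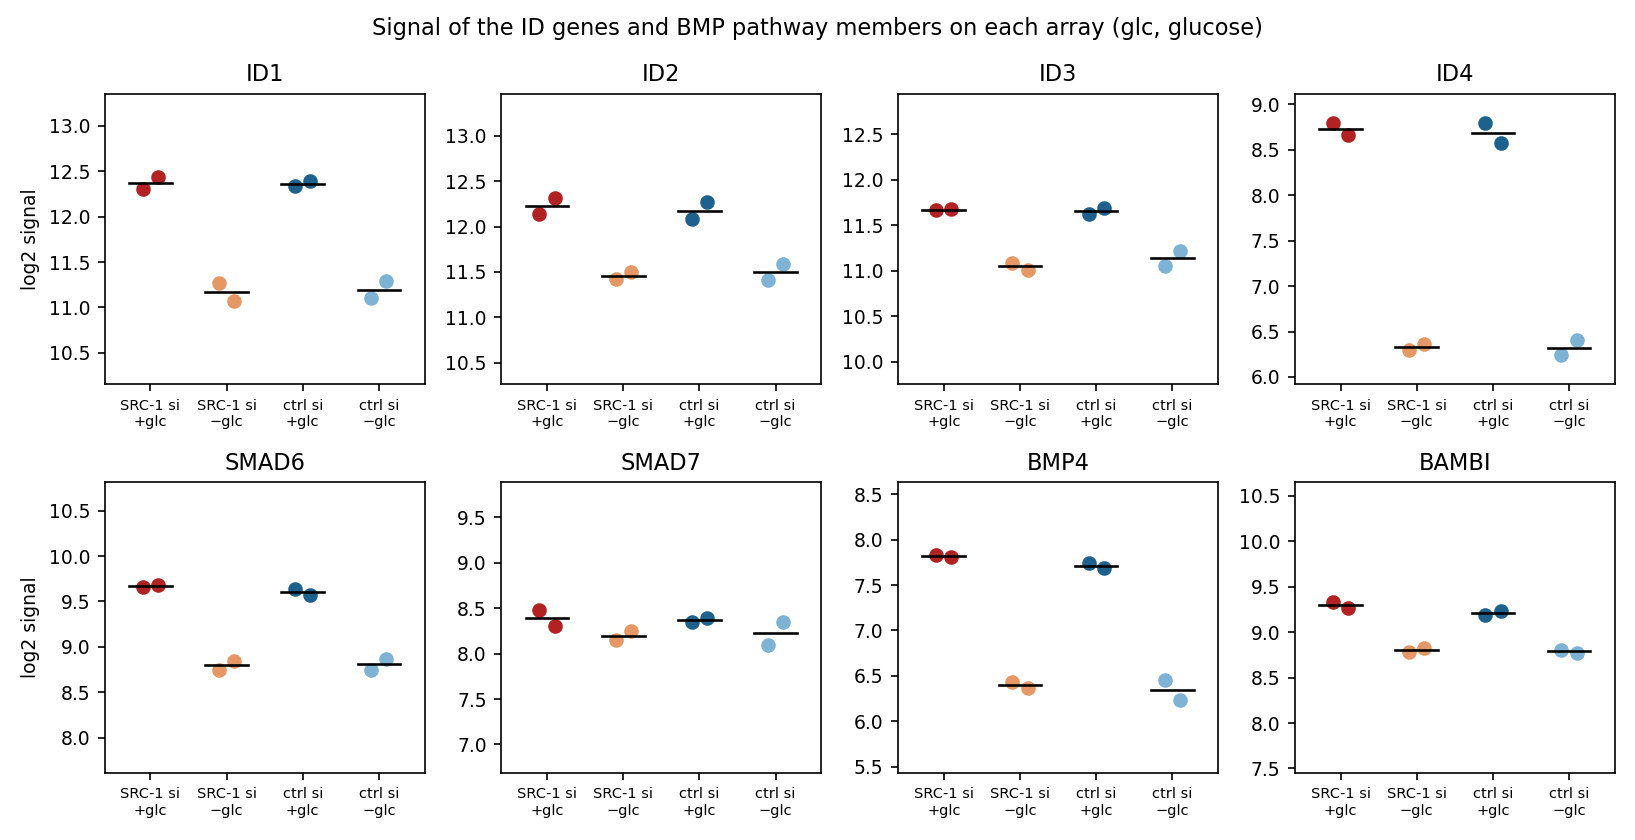
Log2 signal of each gene's main probe set on each array (points) with the group mean (line), on a y axis of the same span in every panel but with its own position. ID4 separates the arrays with glucose from those without the most, SMAD7 the least, and the groups with SRC-1 siRNA (left) and control siRNA (right) lie at like heights.

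BMP4, the ligand, had the largest glucose difference after ID4 when each gene was read from its brightest probe set. Averaged over the probe sets above the filter, the value of ID4 (1.37 with either siRNA) lay just below that of BMP4. Its signals (211518_s_at) were 7.83 and 7.80 in SRC-1 siRNA cells with glucose and 6.43 and 6.37 without, and in control siRNA cells 7.74 and 7.69 with glucose and 6.45 and 6.24 without. No array with glucose came near an array without. The difference was 1.42 ± 0.082 (2.67-fold) with SRC-1 siRNA and 1.37 ± 0.082 (2.59-fold) with control siRNA, above those of 99.3% of all genes in each.

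On their main probe sets, the 3 feedback inhibitors differed among themselves. SMAD6 (207069_s_at), which preferentially restrains BMP receptors and SMAD1, had 9.66 and 9.68 with glucose and 8.75 and 8.85 without in SRC-1 siRNA cells, and 9.63 and 9.57 with glucose and 8.75 and 8.86 without in control siRNA cells. The groups were well apart, by 0.87 ± 0.072 (1.83-fold) with SRC-1 siRNA and 0.80 ± 0.072 (1.74-fold) with control siRNA. The other SMAD6 probe sets, given below, had much smaller differences or differences under 0. BAMBI (203304_at) had 9.33 and 9.27 with glucose and 8.78 and 8.82 without after SRC-1 siRNA, and 9.19 and 9.23 with glucose and 8.80 and 8.77 without after control siRNA. Its difference was smaller but outside the spread of the arrays, 0.50 ± 0.063 (1.41-fold) with SRC-1 siRNA and 0.42 ± 0.063 (1.34-fold) with control siRNA.

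SMAD7 (204790_at), which restrains both BMP and TGF-beta receptors, was the exception among the main probe sets. In SRC-1 siRNA cells it had 8.48 and 8.31 with glucose and 8.15 and 8.25 without, and in control siRNA cells 8.34 and 8.40 with glucose and 8.10 and 8.35 without. With control siRNA the media overlapped. The differences were 0.19 ± 0.10 (95% interval -0.036 to 0.42) with SRC-1 siRNA and 0.15 ± 0.10 (-0.083 to 0.37) with control siRNA, and both intervals include 0. Leaving out 1 array moved both values. The SRC-1 siRNA value was 0.11 without the first array with glucose and 0.28 without the second, and the control siRNA value was 0.020 without the first array without glucose and 0.27 without the second.

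Counted over the members, the 2 arrays with glucose both lay above the 2 without for 8 of 8 genes with SRC-1 siRNA and 7 of 8 with control siRNA. Over all genes tested the same held for 37.7% with SRC-1 siRNA and 36.5% with control siRNA. Since the members were picked on this contrast, nothing is read from the counts. The members' median difference was 0.82 with SRC-1 siRNA and 0.73 with control siRNA, while that of all genes was 0.0059 with SRC-1 siRNA and 0.00088 with control siRNA.

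The further probe sets of ID2, ID4 and SMAD6 gave differing values. The second ID2 probe set (201566_x_at) had glucose differences of 0.94 ± 0.12 with SRC-1 siRNA and 0.73 ± 0.12 with control siRNA, close to those of the main one. Of the 5 ID4 probe sets, 209292_at gave 2.35 ± 0.25 with SRC-1 siRNA and 1.99 ± 0.25 with control siRNA. Its signals were 5.18 and 5.43 with glucose and 2.82 and 3.10 without in SRC-1 siRNA cells, and 5.29 and 4.37 with glucose and 2.77 and 2.91 without in control siRNA cells, so its mean lay below the filter. The dim 226933_s_at gave 0.95 ± 0.19 with SRC-1 siRNA and 0.70 ± 0.19 with control siRNA, and 209293_x_at gave 0.34 ± 0.11 with SRC-1 siRNA and 0.38 ± 0.11 with control siRNA. The dimmest, 229386_at, gave 0.045 ± 0.098 with SRC-1 siRNA and -0.018 ± 0.098 with control siRNA, with intervals that include 0.

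SMAD6 rested on 1 of its 4 probe sets. The next one, 213565_s_at, gave 0.21 ± 0.098 with SRC-1 siRNA (95% interval -0.016 to 0.43) and 0.39 ± 0.098 with control siRNA (0.16 to 0.61). The dim 209886_s_at gave -0.20 ± 0.14 with SRC-1 siRNA and -0.053 ± 0.14 with control siRNA. The probe set 209887_at gave 0.00039 ± 0.13 with SRC-1 siRNA and -0.087 ± 0.13 with control siRNA, and both probe sets have intervals that include 0. The mean of the SMAD6 probe sets above the filter put the glucose difference at 0.22 with SRC-1 siRNA and 0.26 with control siRNA, and the same mean for ID4 gave 1.37 with either. Over all 16 probe sets, 15 had a positive difference with SRC-1 siRNA, the smallest being 0.00039, and 13 with control siRNA. Nothing is read from this count, since the members were picked on this contrast and the share over all probe sets was not counted. Which transcripts each probe set detects was not analysed here.

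**Figure D2:**
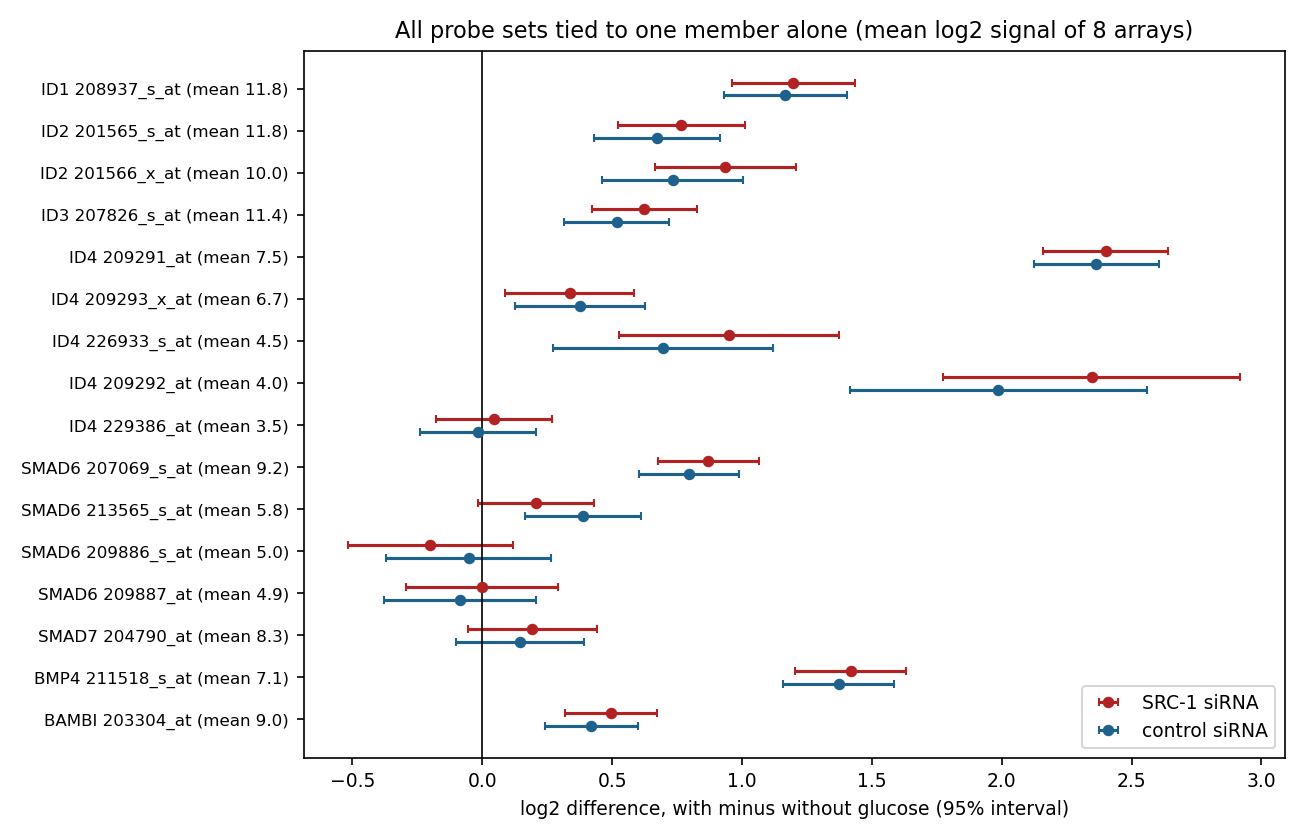
Difference in log2 signal between arrays with and without glucose for all 16 probe sets of the 8 genes, with 95% intervals from the fit over all probe sets, for SRC-1 siRNA (upper of each pair) and control siRNA (lower). The main probe sets of ID4 and SMAD6 lie to the right of their dimmer ones. The intervals of 229386_at (ID4), 209886_s_at and 209887_at (SMAD6) and 204790_at (SMAD7) include 0 with both siRNAs. That of 213565_s_at (SMAD6) includes 0 with SRC-1 siRNA.

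The effect of SRC-1 siRNA on the members was tested, since they were not picked on it. None of the 8 genes passed in either medium. With glucose, the difference between SRC-1 siRNA and control siRNA ranged from 0.0040 (ID1) to 0.10 (BMP4) on the log2 scale, and the smallest adjusted p was 0.953, for BAMBI (limma, Benjamini-Hochberg over all genes). BAMBI had 9.33 and 9.27 with SRC-1 siRNA against 9.19 and 9.23 with control siRNA, and BMP4 had 7.83 and 7.80 with SRC-1 siRNA against 7.74 and 7.69 with control siRNA. For BAMBI, BMP4 and SMAD6, 3 of the 8 members, the SRC-1 siRNA arrays with glucose both lay above the control siRNA arrays with glucose, as they did for 20.4% of all genes. Without glucose the differences ranged from -0.088 (ID3) to 0.058 (BMP4), each with adjusted p = 0.999.

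Averaged over both media, the difference was -0.011 ± 0.067 for ID1, 0.0031 ± 0.070 for ID2, -0.035 ± 0.054 for ID3 and 0.029 ± 0.068 for ID4. For SMAD6 it was 0.029 ± 0.051, for SMAD7 -0.0017 ± 0.071, for BAMBI 0.054 ± 0.045 and for BMP4 0.081 ± 0.058. On the main probe sets, the 95% intervals of these averages lay between -0.165 and 0.214 for all 8. Within 1 medium they were wider, from -0.213 to 0.292 with glucose and from -0.269 to 0.246 without. Of the 8 members, 0 also had an unadjusted p under 0.05 in any knockdown comparison. Over all genes, 1 passed with glucose (0.00736%), 3 without (0.0221%) and 4 on average (0.0294%), so calls of any gene were rare. NCOA1, the siRNA target itself, was called in each of these comparisons and was the only gene called with glucose. In the fit of all 41091 single-gene probe sets, 6 passed on average (0.0146%), and none was a probe set of a member. Among the members' probe sets, the dim ID4 209292_at had the largest average difference, 0.30 ± 0.18 (95% interval -0.10 to 0.70, adjusted p = 0.971). SMAD6 209887_at had the lowest, -0.19 ± 0.091 (-0.39 to 0.020, adjusted p = 0.945). Larger differences are thus not excluded on these probe sets.

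Whether glucose acted on the members to a different extent after SRC-1 siRNA was tested as the difference between the 2 glucose effects. It was 0.031 ± 0.13 for ID1, 0.094 ± 0.14 for ID2, 0.11 ± 0.11 for ID3 and 0.037 ± 0.14 for ID4. SMAD6 had 0.075 ± 0.10, SMAD7 0.047 ± 0.14, BMP4 0.046 ± 0.12 and BAMBI 0.076 ± 0.090. All 8 values were above 0 and within their errors (adjusted p = 0.999 each), and the median over all genes was itself 0.017. The 95% intervals all included 0, the widest being that of SMAD7 (-0.28 to 0.37) and the narrowest that of BAMBI (-0.13 to 0.28). Over all genes, 0 passed (0%), with 465 at an unadjusted p under 0.05 and none of the members among them.

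**Figure D3:**
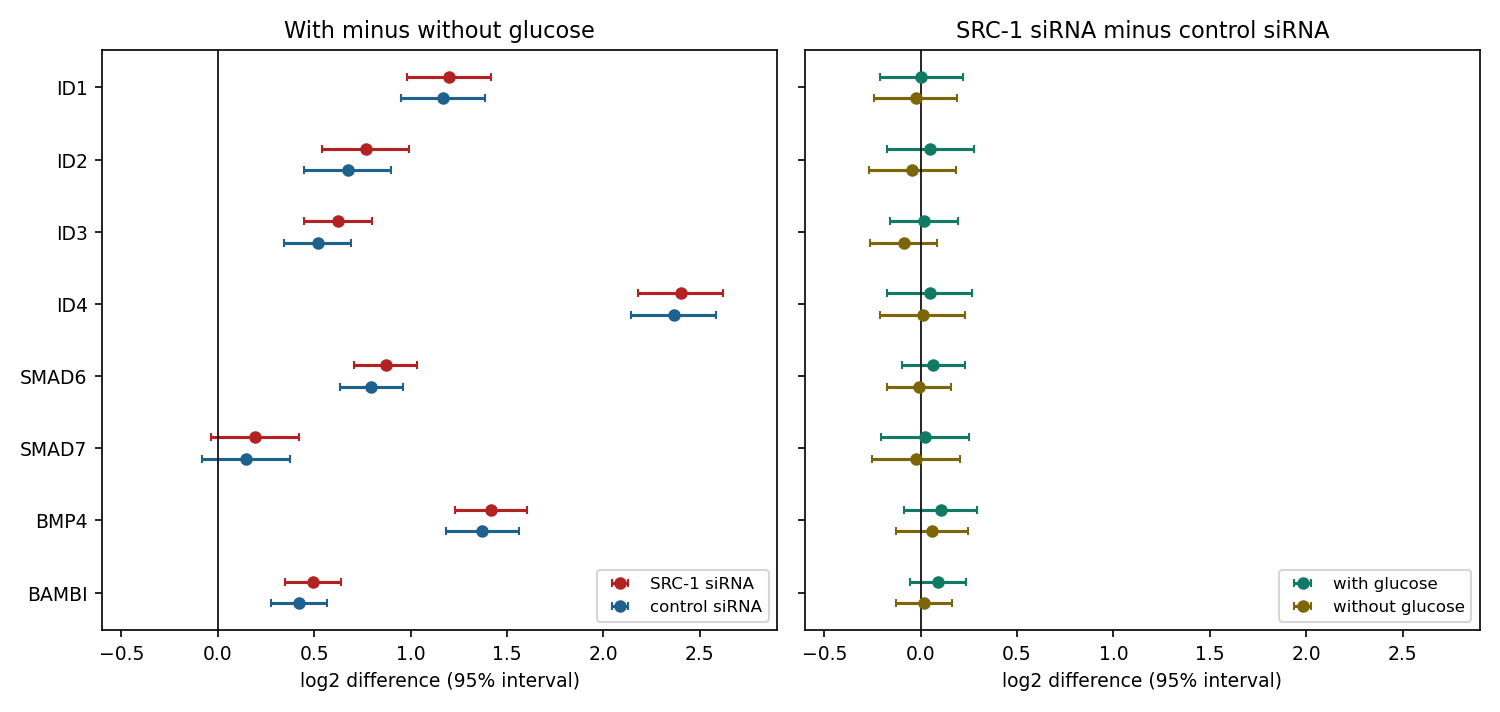
Log2 differences of the 8 genes with 95% intervals, glucose effect on the left for SRC-1 siRNA and control siRNA, effect of SRC-1 siRNA on the right for cells with and without glucose. The left panel runs up to 2.40 for ID4, and every interval in the right panel includes 0.

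The rest of the pathway was followed through lists of textbook membership, 138 genes besides the members, of which 98 passed the filter. With SRC-1 siRNA, 27 were higher and 17 lower with glucose at an adjusted p under 0.05, and with control siRNA 28 were higher and 20 lower. Over all genes, 24.6% were higher and 20.0% lower with SRC-1 siRNA, and 23.6% were higher and 21.6% lower with control siRNA, so the share of pathway genes called was near that of genes at large. The lists' median was 0.0069 with SRC-1 siRNA and -0.0077 with control siRNA. Without the second control siRNA array with glucose, 16 in place of 28 pathway genes were higher with control siRNA. As the 2 glucose comparisons use different arrays, they share no controls. The values below are log2 differences with SE, and adjusted p-values are from limma over all genes.

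Of 6 BMP and GDF ligands besides BMP4, 1 rose with glucose, BMP8B, by 0.69 ± 0.094 with SRC-1 siRNA (adjusted p = 0.00048) and 0.97 ± 0.094 with control siRNA (adjusted p = 8.29e-05). Among 10 receptors and co-receptors, 4 rose and 2 fell with SRC-1 siRNA, and 5 rose and 2 fell with control siRNA. TGFBR3, the co-receptor betaglycan, had 8.59 and 8.54 with glucose and 7.49 and 7.42 without after SRC-1 siRNA, and 8.71 and 8.76 with glucose and 7.55 and 7.65 without after control siRNA. It rose by 1.11 ± 0.069 with SRC-1 siRNA and 1.13 ± 0.069 with control siRNA (adjusted p = 8.68e-06 with SRC-1 siRNA and 7.93e-06 with control siRNA). BMPR2, the type II BMP receptor, rose by 0.97 ± 0.13 with SRC-1 siRNA and 1.18 ± 0.13 with control siRNA, and 5 of its 6 probe sets had positive differences with either. ACVR1, a type I receptor, fell by 0.87 with SRC-1 siRNA and by 0.83 with control siRNA, and ACVR2A, a type II receptor, fell by 0.66 with SRC-1 siRNA and by 0.63 with control siRNA. BMPR1B differed by 0.12 ± 0.080 with SRC-1 siRNA and 0.056 ± 0.080 with control siRNA and was not called, and BMPR1A was not analysed here. Receptor genes thus moved both ways.

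For the SMADs that carry the signal, the probe sets of a gene often disagreed. SMAD1 differed by -0.17 ± 0.070 with SRC-1 siRNA (adjusted p = 0.0824) and fell by 0.34 with control siRNA (adjusted p = 0.00422). The brightest SMAD5 probe set was called lower, at -0.41 ± 0.086 with SRC-1 siRNA and -0.31 ± 0.086 with control siRNA, but the 5 probe sets of the gene spread from -0.41 to 0.78 with SRC-1 siRNA and from -0.60 to 0.90 with control siRNA. No direction is therefore given for SMAD5. SMAD4, the shared partner, differed by 0.077 ± 0.068 with SRC-1 siRNA and -0.071 ± 0.068 with control siRNA, and another of its probe sets by 0.47 with SRC-1 siRNA and 0.69 with control siRNA. SMAD2 and SMAD3, the SMADs of TGF-beta and activin, were not called on their brightest probe sets, but others of their probe sets differed in the fit of all probe sets. For SMAD3, 205398_s_at gave -0.57 ± 0.084 with either siRNA (adjusted p = 0.00132 with SRC-1 siRNA and 0.0013 with control siRNA), and 205397_x_at gave -0.55 ± 0.13 with SRC-1 siRNA and -0.63 ± 0.13 with control siRNA. For SMAD2, 203076_s_at gave -0.35 ± 0.088 with SRC-1 siRNA and -0.30 ± 0.088 with control siRNA, and 235598_at went the other way, at 0.43 ± 0.11 with SRC-1 siRNA and 0.37 ± 0.11 with control siRNA. SMAD9 lay below the filter.

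Among 15 inhibitors inside the cell besides SMAD6, SMAD7 and BAMBI, 7 rose and 2 fell with SRC-1 siRNA, and 6 rose and 3 fell with control siRNA. TOB1, an antiproliferative protein known in mouse bone cells to restrain BMP SMADs, had 11.84 and 11.82 with glucose and 11.00 and 11.14 without after SRC-1 siRNA, and 11.94 and 11.93 with glucose and 11.00 and 11.05 without after control siRNA. It rose by 0.76 ± 0.069 with SRC-1 siRNA and 0.92 ± 0.069 with control siRNA (adjusted p = 5.81e-05 with SRC-1 siRNA and 2.29e-05 with control siRNA). CTDSPL, a phosphatase of a family that removes phosphate from SMADs, rose by 0.88 ± 0.076 with SRC-1 siRNA and 0.77 ± 0.076 with control siRNA. LEMD3, a nuclear envelope protein that binds SMADs, rose by 0.48 ± 0.071 with SRC-1 siRNA and 0.59 ± 0.071 with control siRNA. SMURF2, a ubiquitin ligase for SMADs and receptors, fell by 0.70 with either siRNA.

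Of 9 secreted antagonists, 1 rose and 2 fell with SRC-1 siRNA, and 2 rose and 2 fell with control siRNA. GREM1, which binds BMP2 and BMP4, had 7.30 and 7.40 with glucose and 8.49 and 8.34 without in SRC-1 siRNA cells, and 7.43 and 7.25 with glucose and 8.29 and 8.75 without in control siRNA cells. It fell by 1.07 with SRC-1 siRNA and by 1.18 with control siRNA (adjusted p = 0.000408 with SRC-1 siRNA and 0.000244 with control siRNA). FST, follistatin, which binds activins and BMPs, fell by 1.22 with SRC-1 siRNA (adjusted p = 6.57e-05) and by 1.07 with control siRNA (adjusted p = 0.000133). TWSG1, which joins BMPs and chordin, rose by 0.92 ± 0.091 with SRC-1 siRNA and 0.81 ± 0.091 with control siRNA. NBL1, of the DAN family, differed by 0.25 ± 0.10 with SRC-1 siRNA (adjusted p = 0.0829) and rose by 0.29 ± 0.10 with control siRNA (adjusted p = 0.0488).

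**Figure D4:**
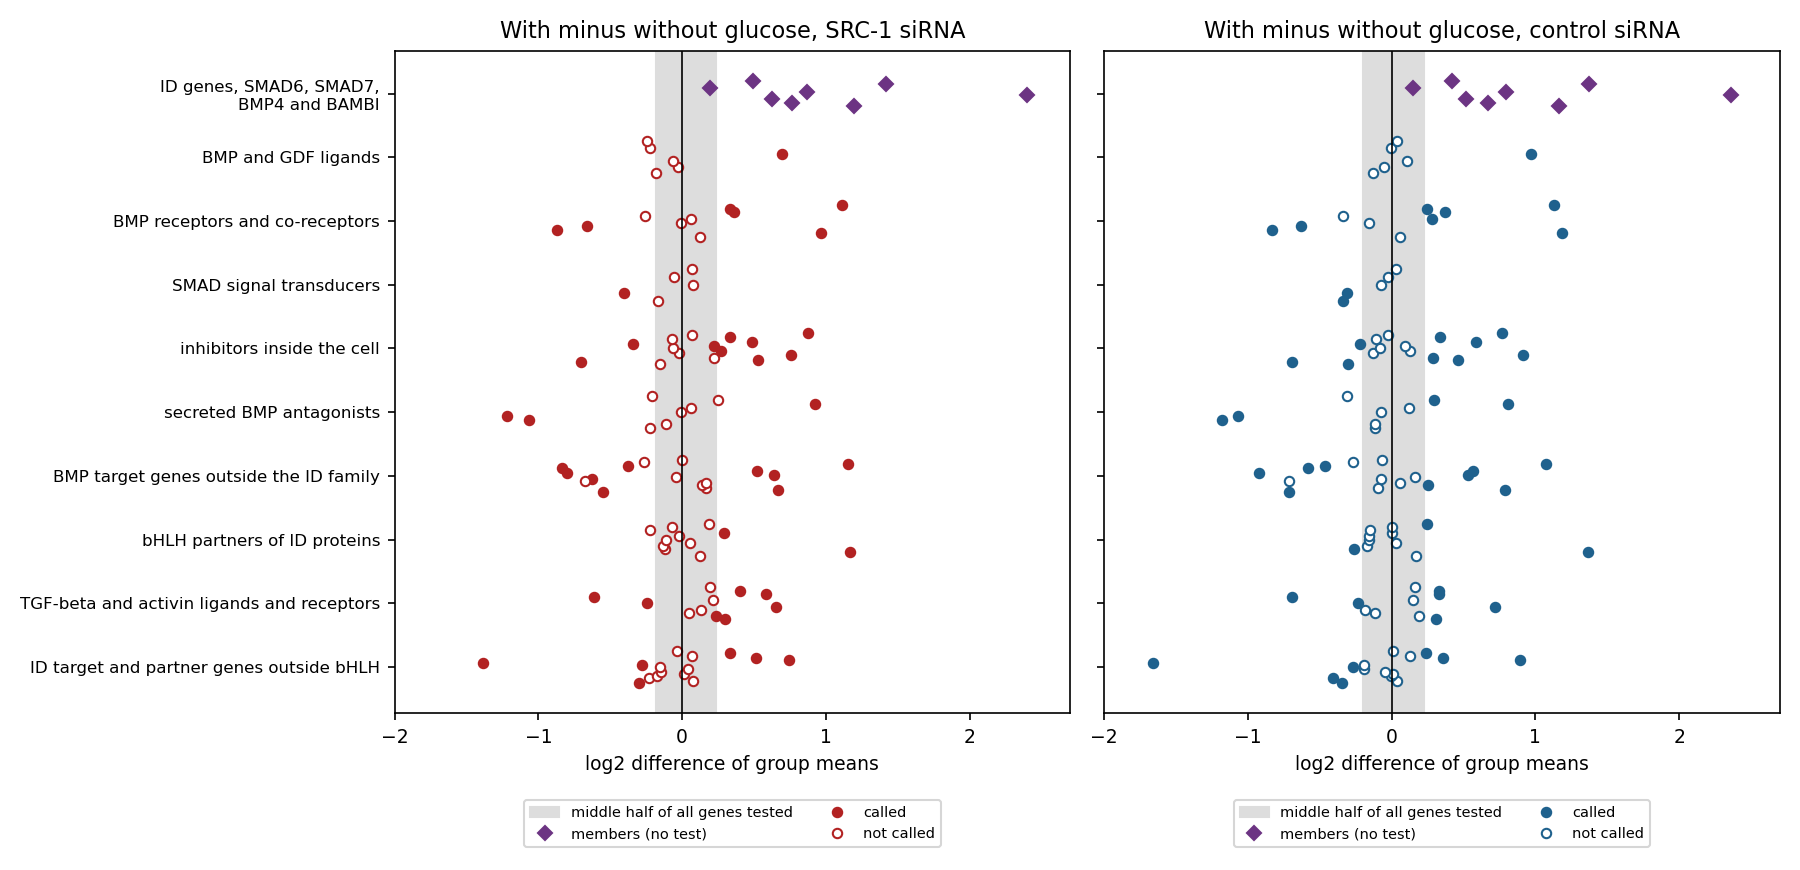
Log2 difference between cells with and without glucose for the 8 members (diamonds, not tested) and for the genes of each pathway list (filled where the adjusted p was under 0.05, open otherwise), with SRC-1 siRNA on the left and control siRNA on the right. The grey band is the interquartile range of all 13584 genes, and every list of pathway genes has points on both sides of 0.

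Other genes known as BMP targets went both ways as well. Of 16, 4 rose and 5 fell with SRC-1 siRNA, and 5 rose and 4 fell with control siRNA. ZNF703, a transcriptional repressor, rose by 1.15 ± 0.14 with SRC-1 siRNA and 1.07 ± 0.14 with control siRNA. HES1, also a Notch effector, rose by 0.67 ± 0.091 with SRC-1 siRNA and 0.79 ± 0.091 with control siRNA. GATA3, a lineage transcription factor, fell by 0.80 with SRC-1 siRNA and by 0.92 with control siRNA. HEY1, a relative of HES1, fell by 0.55 with SRC-1 siRNA and by 0.72 with control siRNA. RUNX2, the osteoblast regulator, fell by 0.63 with SRC-1 siRNA (adjusted p = 0.00435) and differed by -0.073 ± 0.13 with control siRNA, and the difference between these effects, -0.56 ± 0.18, did not pass (adjusted p = 0.999). The brightness of RUNX2 was low, at 5.12 to 5.87 over the arrays.

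Of 11 tested bHLH partners of ID proteins, 2 rose and 0 fell with SRC-1 siRNA, and 2 rose and 1 fell with control siRNA. The E protein gene TCF4 (212386_at) had 8.68 and 8.51 with glucose and 7.46 and 7.39 without in SRC-1 siRNA cells, and 8.61 and 8.61 with glucose and 7.33 and 7.15 without in control siRNA cells. It rose by 1.17 ± 0.086 with SRC-1 siRNA and 1.37 ± 0.086 with control siRNA (adjusted p = 1.96e-05 with SRC-1 siRNA and 9.17e-06 with control siRNA), and all 8 of its probe sets had positive differences with both. TCF12 differed by -0.12 ± 0.075 with SRC-1 siRNA and fell by 0.27 with control siRNA, with probe sets on both sides of 0 there. TCF3 was not called, at 0.13 ± 0.085 with SRC-1 siRNA and 0.17 ± 0.085 with control siRNA. However, 1 of its 14 probe sets gave 1.23 with either siRNA, and the next highest gave 0.30 with SRC-1 siRNA and 0.20 with control siRNA. The mesoderm factor MESP1 differed by 0.19 ± 0.070 with SRC-1 siRNA (adjusted p = 0.0586) and rose by 0.25 ± 0.070 with control siRNA.

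Of 15 non-bHLH targets and partners of ID proteins, 3 rose and 3 fell with SRC-1 siRNA, and 3 rose and 4 fell with control siRNA. The ETS factors, which ID proteins can bind, split: ETS1 had 8.98 and 8.86 with glucose and 10.30 and 10.32 without in SRC-1 siRNA cells, and 8.65 and 8.85 with glucose and 10.22 and 10.59 without in control siRNA cells. It fell by 1.38 with SRC-1 siRNA and by 1.66 with control siRNA (adjusted p = 4.77e-05 with SRC-1 siRNA and 1.94e-05 with control siRNA). ETS2 rose by 0.75 ± 0.064 with SRC-1 siRNA and 0.89 ± 0.064 with control siRNA. CDKN1A, which encodes the cell cycle inhibitor p21, fell by 0.30 with SRC-1 siRNA and by 0.35 with control siRNA. CDKN1B, which encodes p27, differed by -0.23 ± 0.085 with SRC-1 siRNA (adjusted p = 0.0526) and fell by 0.41 with control siRNA.

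In the neighbouring TGF-beta and activin branch, 5 of 11 genes rose and 2 fell with SRC-1 siRNA, and 4 rose and 2 fell with control siRNA. INHBB, an activin subunit, rose by 0.65 ± 0.099 with SRC-1 siRNA and 0.72 ± 0.099 with control siRNA. The receptor gene TGFBR1 rose by 0.58 ± 0.079 with SRC-1 siRNA and 0.33 ± 0.079 with control siRNA, and TGFBR2 by 0.40 ± 0.081 with SRC-1 siRNA and 0.33 ± 0.081 with control siRNA. The stress-induced ligand GDF15 fell by 0.61 with SRC-1 siRNA and by 0.69 with control siRNA. For SRC-1 siRNA against control siRNA, averaged over media, 0 of the 98 pathway genes passed, with 8 (8.16%) at an unadjusted p under 0.05, against 4.96% of all genes. The smallest p was that of NOG, which encodes the BMP antagonist noggin, at 0.26 ± 0.064 (adjusted p = 0.809).

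Profiles over the 8 arrays, centred on each gene's mean, were compared by root mean square distance in log2 units, a description that the glucose contrast dominates. Nearest to ID4 were HELLS (0.12), a chromatin remodeller of DNA methylation, CCNE2 (0.13), cyclin E2, and HSPA2 (0.14), an HSP70 chaperone. Nearest to ID1 were C9orf40 and ACYP1 (0.056 each) and SFPQ (0.058), a splicing factor. FN3KRP (0.041), GSTCD (0.044) and DLGAP5 (0.050), a spindle protein, were nearest to ID2. The closest to ID3 were ZDHHC6 (0.026), DDX39A (0.027) and ALYREF (0.035), of which the last 2 act in mRNA export. No member of the set was among these nearest genes. Between members, ID3 and BAMBI (0.094), ID2 and SMAD6 (0.095) and ID2 and ID3 (0.099) were the closest pairs, while ID4 and SMAD7 (1.11) were the farthest apart.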

How the data were processed

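RNA of A549 cells was measured on 8 Affymetrix 3′ expression arrays in 4 groups of 2. Per the labels' protocols, RNA was purified on RNeasy columns and hybridized as biotinylated cRNA. The deposited table holds 1 log2 signal for each probe set and array, from 1.98 to 14.69. The log base was inferred from the hybridization spikes, whose neighbouring steps stood 1.87 to 2.00 units apart. Background correction, probe summary and normalization are not given in the sources used here, nor were detection calls used.

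Of 54675 probe sets, 41091 had 1 gene in the platform annotation, of which 41037 matched a RefSeq gene (GRCh38.p14) by Entrez identifier. Probe sets with a mean under the 40th percentile (log2 4.80) were left out and the brightest per gene was kept, which left 13584 genes. All arrays entered 1 limma fit (limma 3.58.1, R 4.3.3) with a mean per group, 4 residual and 4.35 prior degrees of freedom, two-sided tests, Benjamini-Hochberg adjustment over all genes and a threshold of 0.05. A second fit took all single-gene probe sets with no filter. Precision is limited by the number of arrays, since permuting 2 arrays against 2 gives a two-sided p of 0.333 at the least. Nothing says that replicates came from separate cultures beyond the word biological, so the spread behind the p-values may be technical.

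The members and lists were chosen with earlier results of these data known. Named genes were all members, the core receptors, SMADs and E proteins, up to 4 genes called with control siRNA and smallest in p per list, and the 3 nearest profiles of each ID gene. RUNX2, NOG and the further probe sets of pathway genes were chosen after their values were seen. The fit was tested on simulated arrays. Alternatives covered normalization, filter, choice of probe set, variance model, array weights, the groups fitted, a replicate block and each array left out. Same-numbered arrays of different groups deviated together little (correlations of deviations from -0.096 to 0.12), so the numbers were not taken to pair them.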

Additional observations from a re-analysis of the deposited data

How the results depend on the processing

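Over 59 results and 18 alternatives, 1010 of 1019 values were rated the same, 8 moved and 1 reversed. Part of these ratings was fixed in advance. The other variance model, the replicate block and the fit of only the groups compared cannot change a member's glucose difference or whether its groups overlap. The total is therefore no measure of how robust the results are. A tested difference was rated the same if its call did not change, whatever its sign. An untested glucose difference had to stay within the replicate spread, and a count within a set ratio. Leaving out probe sets with the ending _s_at or _x_at, which removes every one of ID1, ID2, ID3 and BMP4, showed 3 members higher with glucose after SRC-1 siRNA and 2 after control siRNA. SMAD6 was then read from 209887_at, at 0.00039 with SRC-1 siRNA and -0.087 with control siRNA, because the brighter probe sets were gone. With each array left out in turn, 16 to 27 pathway genes were higher with glucose after control siRNA, against 28 with all arrays. The lowest count, 16, came without the second control siRNA array with glucose. Each of these settings leaves out 1 array, so the count depends on which array is left out. Why it was lowest without that array was not tested. No member was called for SRC-1 siRNA or for the difference of glucose effects in any setting, with smallest adjusted p from 0.752 to 0.999, though 62 such differences near 0 changed sign. With the replicate number as a block, 26 pathway genes were higher and 18 lower after SRC-1 siRNA, and 27 higher and 21 lower after control siRNA. The block changed no call of a member. The fit of only the groups compared was not run for the average and the difference of effects. With no detection calls, folds of dim probe sets may be compressed.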
